A study of Drosophila melanogaster with 24 samples.

Results

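CTCF, BEAF-32, Trl, pita, ZIPIC, Ibf1, Ibf2 and Chro encode architectural proteins of Drosophila that work outside the Su(Hw) complex. These 8 of 13922 protein-coding genes on the main chromosome arms were taken by name, and every peak that reached a gene span widened by 5 kb on each side was assigned to it. The peaks came from chromatin immunoprecipitation and sequencing (ChIP-seq) of Isha, Su(Hw), CP190 and Mod(mdg4)67.2 in Kc167 cells, a female line derived from embryos. Isha is named in the series title as a protein that binds the mRNA of su(Hw). It was knocked down by transfecting 12 µg of dsRNA against it and keeping the cells for 5 days, and the controls were mock cells, whose treatment the labels do not describe further. The 24 libraries (16 immunoprecipitates and 8 inputs) made 12 groups of 2 replicates, and the 2 replicates of Isha used different antisera, Isha-Rb95 and Isha-Rb96. The stated aims of the series were to place Isha relative to the insulator proteins and to learn whether their binding depends on it.

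Architectural proteins bind insulators and domain borders and help to fold the chromosome. Several of these proteins recognise their own DNA sequence and then bring in CP190, a cofactor that also serves Su(Hw). CTCF, Pita and ZIPIC are zinc finger proteins that recruit CP190. BEAF-32, Ibf1 and Ibf2 bind DNA through BED fingers, Ibf1 and Ibf2 also as partners of CP190. Trl encodes GAGA factor, which binds GAGA repeats and opens chromatin. Chro encodes Chromator, a chromodomain protein of the interbands of polytene chromosomes that is brought to DNA by other proteins such as BEAF-32. The comparisons below concern the genes of these proteins, not the sites the proteins bind.

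The data used were 8 lists of peak positions in dm6, 1 for each antibody and treatment, without score, height or read count. The depth is therefore unknown, and absence from a list means only that no peak was called there. The lists held 4735 mock and 932 knockdown Isha peaks, 8193 and 8880 CP190 peaks, 4900 and 4711 Su(Hw) peaks, and 1305 and 1091 Mod(mdg4) peaks. With 1 list a group there is no replicate check, so no difference was tested. Intervals are Wilson 95% intervals, which cover counting error over peaks only. A mock peak is called kept when a knockdown peak of the same protein overlaps it by at least 1 bp, and lost when none does. The gene table gives no strand, so gene ends are called lower and upper by coordinate, and start sites are not told from transcript ends.

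In mock cells all 8 genes had Isha and CP190 nearby, and few had Su(Hw) or Mod(mdg4). Ibf1 and Ibf2 are neighbours that share all their peaks, so the counts by gene rest on 7 separate places. An Isha peak lay in the window of 8 of 8 genes, against 61.2% of all protein-coding genes. CP190 was also at 8 of 8, against 79.1%, and both together at 8 of 8, against 56.5%. Su(Hw) was at 1 of 8, the gene BEAF-32, against 38.6% of all genes, which left 7 of 8 with Isha and no Su(Hw), against 42.8%. Mod(mdg4) was at 0 of 8, against 15.1%. After knockdown an Isha peak remained at 3 of 8 genes (CTCF, pita and Chro), against 22.9% of all genes. CP190 was still called at 8 of 8 (80.7% of all genes), Su(Hw) at 2 of 8 (36.8%) and Mod(mdg4) at 0 of 8 (14.0%). Some of these counts depended on the window: with flanks of 10 kb, knockdown Isha was at 5 genes, mock Su(Hw) at 3 and Mod(mdg4) at 1 in each treatment. No share over all genes was computed for flanks of 10 kb, so these counts cannot be set against genes at large. With no flank, knockdown Isha was at 2 genes, mock Su(Hw) at 0 and knockdown Su(Hw) at 1.

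**Figure D1:**
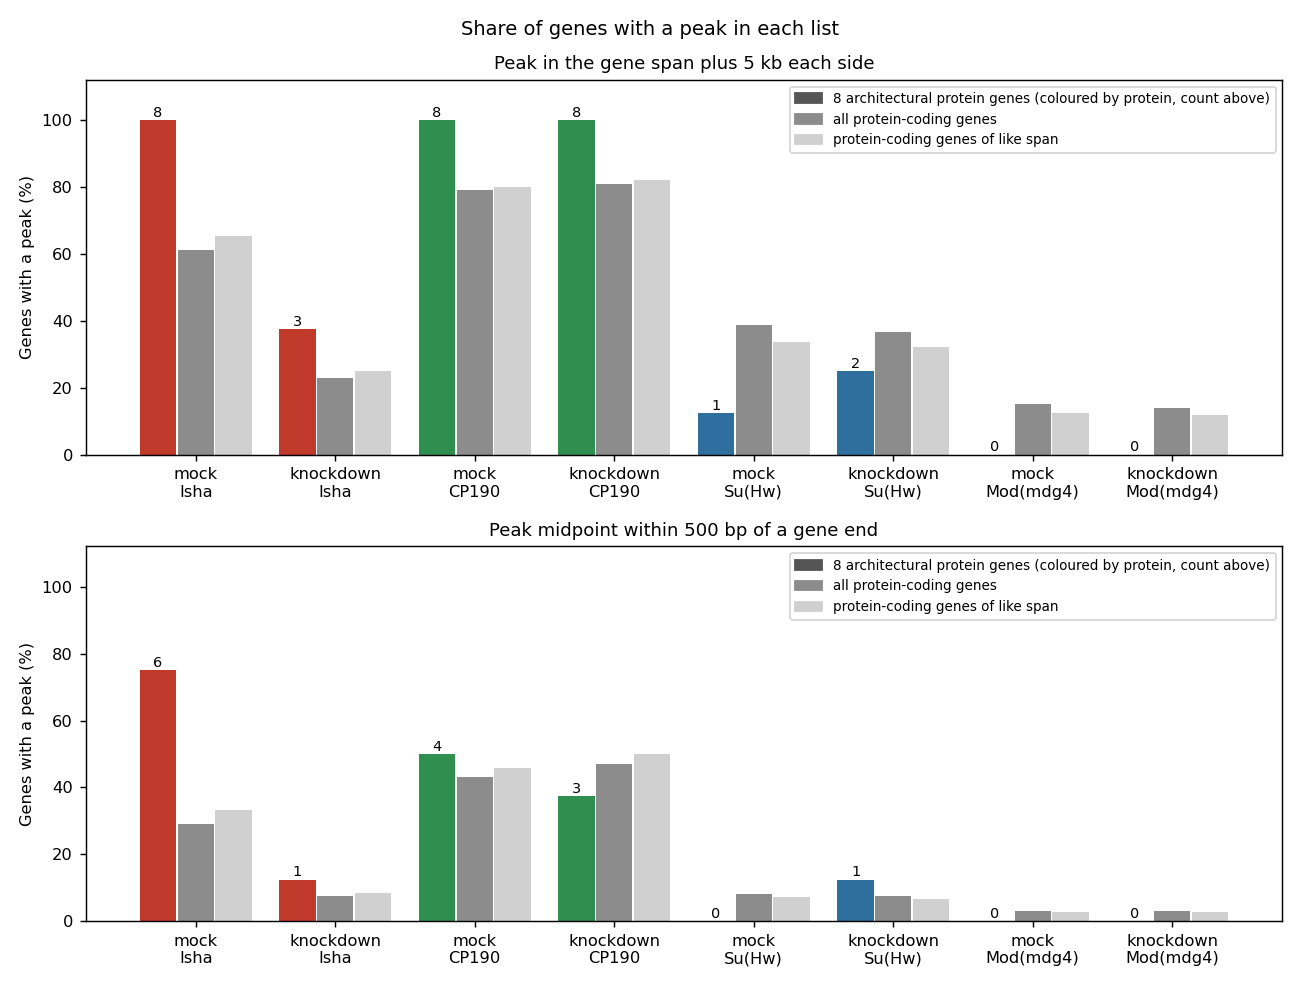
Bars give the share of genes with a peak in each list: the 8 architectural protein genes (coloured, with their number above), all 13922 protein-coding genes (dark grey) and the 10749 of a span between 775 and 13121 bp (light grey). The upper panel counts peaks in the gene span plus 5 kb and the lower panel peaks whose midpoint is within 500 bp of a gene end; Isha and CP190 in mock cells reach 8 of 8 genes in the upper panel, and mock Isha 6 of 8 in the lower.

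The 8 genes were of ordinary length and lay among other genes. Their spans ran from 775 bp for Ibf2 to 13121 bp for Trl, with a median of 2649 bp against 2163 bp over all protein-coding genes. Their windows held 2 to 6 other protein-coding genes, with a median of 5 against 4. Among the 8832 genes whose span and number of neighbours fell within these ranges, 71.8% had a mock Isha peak in the window, 83.2% had CP190, 32.7% Su(Hw) and 12.1% Mod(mdg4). Each of the 8 genes had at least 2 mock Isha peaks, against 40.3% of all genes and 48.3% of genes within both ranges.

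On the gene spans themselves, without flanks, the picture was alike. A mock Isha peak overlapped 8 of 8 genes, against 43.6% of all genes, and a knockdown one 2 of 8 (pita and Chro), against 11.3%. CP190 overlapped 7 of 8 genes in each treatment, all but ZIPIC, against 54.9% of all genes in mock cells and 56.0% after knockdown. Su(Hw) overlapped 0 of 8 genes in mock cells and 1, Chro, after knockdown, against 17.6% and 15.8%. Mod(mdg4) overlapped 0 of 8 in both treatments, against 5.92% and 5.42%. Isha in mock cells was thus called on every gene itself and not in the flanks alone.

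Since windows overlap neighbours, many of these peaks lay nearest to another gene. The windows together held 20 distinct mock Isha peaks, of which 15 had their midpoint within 500 bp of an end of some protein-coding gene and 5 were nearest to an end of 1 of the 8 genes. Of the 15 mock CP190 peaks, 13 were that close to a gene end and 5 were nearest to an end of the 8. No share over all peaks was computed for these counts, so they describe these windows only. Counted over pairs of gene and peak, in which the peaks shared by Ibf1 and Ibf2 count for each, 6 of 24 mock Isha pairs were at an end of the gene itself, 3 in its interior and 15 in the flank. Over all genes the corresponding shares were 22.5%, 11.7% and 65.8%, so the placement of the pairs was close to that of genes at large. For mock CP190 the pairs numbered 4, 3 and 9 of 16, against 28.3%, 12.6% and 59.0% over all genes.

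Counted by gene, whatever its number of peaks, mock Isha within 500 bp of an end was more frequent than at genes at large. A mock Isha peak had its midpoint within 500 bp of an end of 6 of 8 genes. The share was 29.0% of all genes, 33.2% of genes of like span and 36.5% of genes within both ranges. No share among genes with 2 or more mock Isha peaks was computed. The exceptions were Trl and Ibf1, and at CTCF and pita the midpoint lay nearer to an end of pst and of Rrp4. The number of such peaks depended on the distance, with 2 within 250 bp and 10 within 1000 bp. No share over all genes was computed at these 2 distances, so the comparison by midpoint rests on 500 bp only. After knockdown 1 of 8 genes, pita, had Isha this close to an end, against 7.47%. Mock Isha peaks covered 10 of the 16 gene ends, against 25.0% of all gene ends, and mock CP190 peaks covered 7 of 16, against 30.4%. At BEAF-32 and at Ibf2 a single Isha peak covered both ends, so the 10 ends are not independent. By gene, an end was covered by mock Isha at 6 of 8, against 39.7% of all genes. Mock CP190 covered an end of 6 of 8, against 50.8%. After knockdown Isha covered 3 of 16 ends (6.12% of all ends) and CP190 still 7 of 16 (30.3%), and each of these ends had been covered in mock cells too. At a 500 bp midpoint CP190 was at 4 of 8 genes in mock cells and 3 of 8 after knockdown, against 43.2% and 46.9% of all genes. Su(Hw) was this close at 0 of 8 genes in mock cells and 1 of 8 after knockdown (8.1% and 7.48% of all genes), and Mod(mdg4) at 0 of 8 in both (3.08% and 3.05%).

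**Figure D2:**
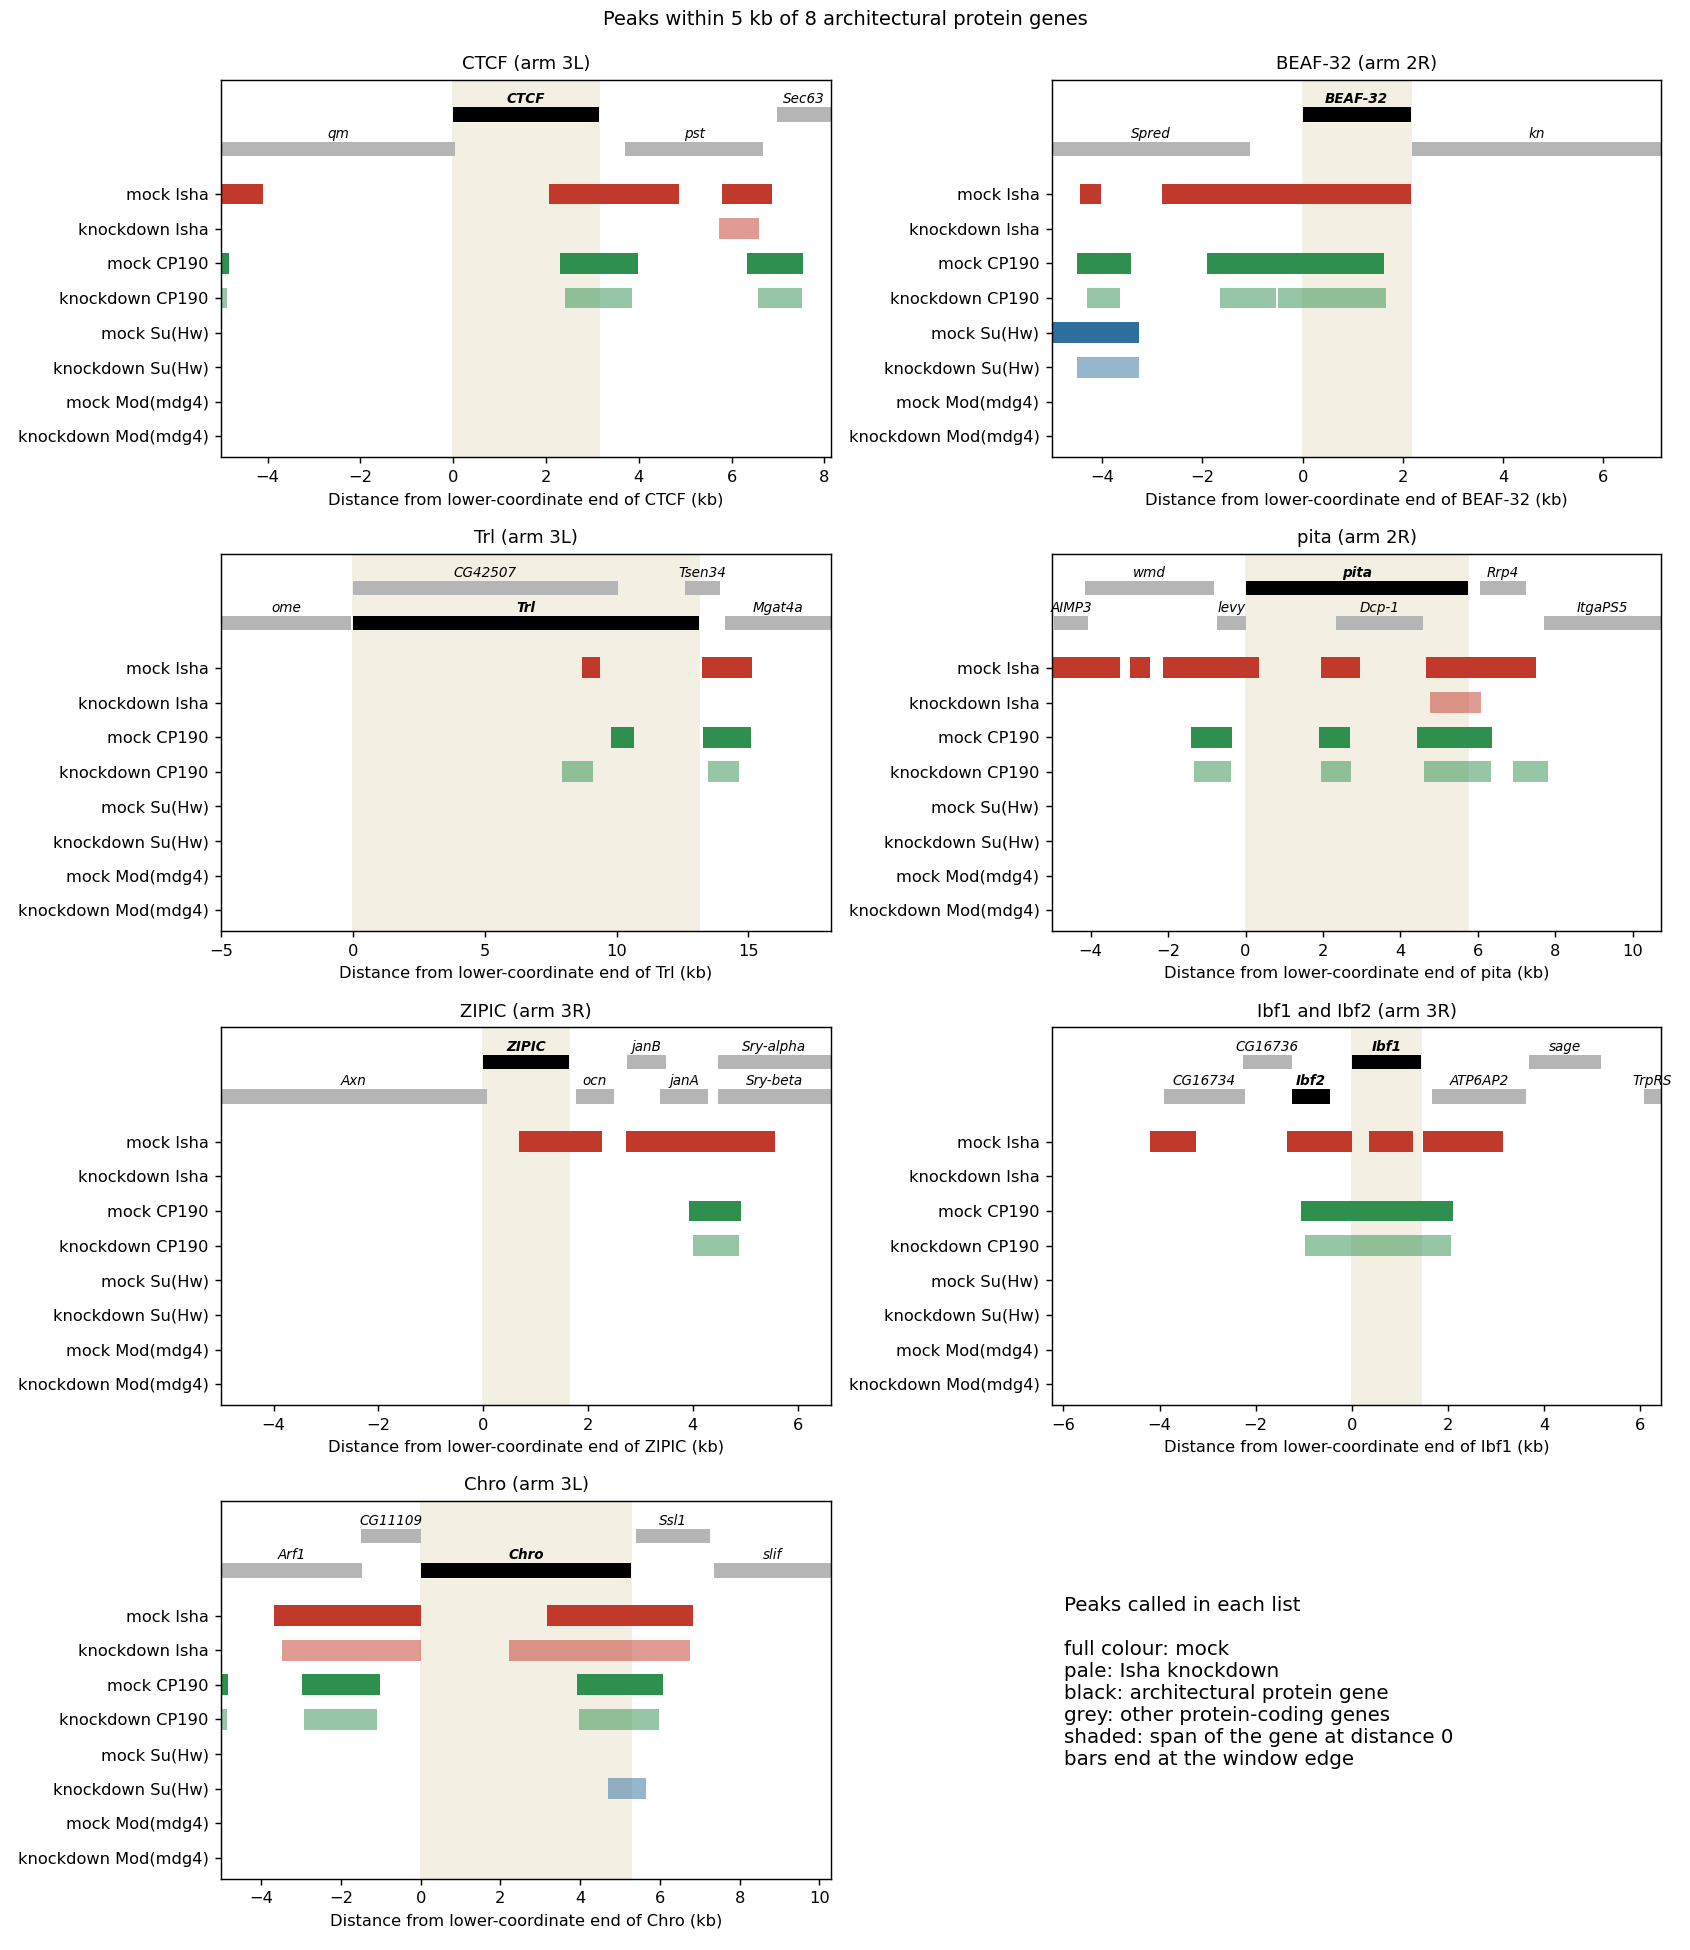
Called peaks of the 8 lists around the 8 genes, by distance in kb from the lower-coordinate end of each gene (Ibf1 for the panel that also holds Ibf2); black bars are the architectural protein genes, grey bars other protein-coding genes, and pale bars the knockdown lists. Isha bars are present in mock cells at every gene and after knockdown only at CTCF, pita and Chro. CP190 bars are in nearly the same places in both treatments except inside Trl and for an added peak at pita. At BEAF-32 a mock CP190 bar is matched by 2 knockdown bars.

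CTCF (CG8591; 3L, 7353578 to 7356713) encodes the fly relative of the vertebrate insulator protein CTCF. Its mock Isha peak, 7355639 to 7358436, was 2798 bp wide, covered the upper end of the gene and reached into the neighbour pst, which begins after a gap of 561 bp. That peak had no counterpart after knockdown. A CP190 peak lay inside it, centred 9 bp from the upper end of CTCF, at 7355881 to 7357564 in mock cells and at 7355988 to 7357422 after knockdown. The Isha peak that remained in the window was another one, 7359378 to 7360442 in mock cells and 7359311 to 7360171 after knockdown, centred 3197 bp from CTCF in mock cells and nearest to pst. A further mock Isha peak at the far end of qm, 7347613 to 7349483, was lost, and the CP190 peak inside it was kept. Thus CTCF itself held Isha in mock cells only, and all 3 CP190 peaks of its window were kept.

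pita (CG3941; 2R, 23548967 to 23554712) encodes a zinc finger protein of the boundaries of the bithorax complex. Its window had the most mock Isha peaks, 5, which covered 54.8% of its base pairs, the largest share of the 8 genes. After knockdown 1 was left and covered 8.36%. The remaining peak lay over the upper end of pita, toward Rrp4, an exosome subunit gene. It spanned 23553624 to 23556458 in mock cells and 23553729 to 23555045 after knockdown, and its width was 2835 bp and 1317 bp. Its edge on the side of Rrp4 was shifted by -1413 bp, and the other edge by 105 bp. The lost peaks included 1 across the lower end of pita at levy, a cytochrome oxidase subunit gene, and 1 at the end of Dcp-1, a caspase gene that lies inside pita. All 3 mock CP190 peaks were kept, at 23547560 to 23548626, 23550869 to 23551664 and 23553400 to 23555333. After knockdown the window had 1 more CP190 peak, 23555884 to 23556773, 550 bp from the nearest mock CP190 peak. It overlapped the wide mock Isha peak at Rrp4, outside the stretch called as Isha after knockdown.

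ZIPIC (CG7928; 3R, 30035240 to 30036870) encodes a zinc finger protein named for its interaction with CP190. An Isha peak at 30035920 to 30037497 covered its upper end in mock cells, 132 bp from the next gene, ocn. A larger one at 30037956 to 30040807 lay over janA and janB toward Sry-alpha and Sry-beta. Neither was called after knockdown. ZIPIC was the only gene of the 8 with no CP190 peak on its own span in either treatment. Its window held 1 CP190 peak, 30039163 to 30040163 in mock cells and 30039244 to 30040113 after knockdown, centred 56 bp in mock cells from the lower end that the gene table gives for both Sry-alpha and Sry-beta. CP190 overlapped the mock Isha peak there and not the one at ZIPIC.

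BEAF-32 (CG10159; 2R, 14770469 to 14772630) encodes the boundary factor of the scs' element. It had the widest Isha peak of the 20, 14767660 to 14772635, which was 4976 bp wide, stood at width percentile 98.0 of the mock Isha list and covered the whole gene. It ended short of kn, the gene of the transcription factor Collier, which begins 19 bp after BEAF-32. After knockdown no Isha peak was called in the window. A mock CP190 peak at 14768570 to 14772088 lay within that region and met 2 knockdown peaks, 14768830 to 14769942 and 14769985 to 14772136, parted by 42 bp. Together these measured 3265 bp, against 3519 bp for the mock peak, and 3.21% of all mock CP190 peaks met 2 or more knockdown peaks. BEAF-32 was also the only gene of the 8 with Su(Hw) in mock cells. That peak lay inside Spred, 14765442 to 14767197 in mock cells and 14765974 to 14767196 after knockdown, centred 4150 bp from BEAF-32 in mock cells. It lay together with a CP190 peak in both treatments and with the narrowest of the 20 mock Isha peaks. That Isha peak was 410 bp wide, the smallest width in the whole mock Isha list, and was lost. Mod(mdg4), a partner of Su(Hw) and CP190 at the gypsy insulator, was not called there in either list.

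Ibf1 (CG8436; 3R, 9258964 to 9260400) and Ibf2 (CG9740; 3R, 9257727 to 9258501) encode the insulator binding factors, lie 462 bp apart and share every peak. They are therefore 1 place in the genome rather than independent cases. Mock cells had 4 Isha peaks around them, at 9254771 to 9255723, 9257609 to 9258961, 9259314 to 9260239 and 9260448 to 9262110. The peak of 1353 bp covered Ibf2 whole, the one of 926 bp lay inside Ibf1, and the other two lay at CG16734 and at ATP6AP2. None was called after knockdown. By contrast a broad CP190 peak that covered Ibf1 whole and reached into Ibf2 was nearly the same in both treatments, at 9257909 to 9261061 (3153 bp) and at 9257992 to 9261028 (3037 bp). It stood at width percentile 97.2 of the mock CP190 list. It overlapped all of the mock Isha peaks but the one at CG16734.

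Trl (CG33261; 3L, 14747929 to 14761049), the longest of the genes, had the smallest share of its window under mock Isha peaks, 11.3%, and was the one gene where a CP190 peak was not kept. A mock Isha peak of 704 bp lay in its interior, 14756603 to 14757306, and one of 1910 bp lay beyond its upper end at Mgat4a, 14761171 to 14763080. Both were lost. The CP190 peak at Mgat4a was kept, at 14761213 to 14763007 and 14761379 to 14762566. In the interior the mock CP190 peak was at 14757700 to 14758592 and the knockdown peak at 14755846 to 14757038, 661 bp apart with no overlap. The knockdown CP190 peak overlapped the place of the lost mock Isha peak, and the mock CP190 peak did not. Trl shares its lower end with CG42507. The mock CP190 peak covered the upper end of that gene and was centred 184 bp from it.

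Chro (CG10712; 3L, 22873702 to 22878984) differed from the other genes in keeping all its Isha. A mock peak at 22870035 to 22873721 just touched its lower end from CG11109, and was called after knockdown at 22870232 to 22873707. Another at 22876867 to 22880527 covered its upper end and reached into Ssl1, a gene of the TFIIH complex 104 bp away, and was called after knockdown at 22875923 to 22880446. Its width went from 3661 to 4524 bp, a ratio of 1.24. Of the 776 Isha peaks matched 1 to 1 between treatments, 83.2% were narrower after knockdown, with a median ratio of 0.814. Isha peaks covered 48.1% of the Chro window in mock cells and 52.3% after knockdown. Of the 5616 genes with 2 or more mock Isha peaks in their window, 5.52% kept every one, and cover was not lower after knockdown in 0.534%. The upper end of Chro also gained the only new Su(Hw) peak of the 8 genes, 22878402 to 22879355, 954 bp wide, whereas the nearest mock Su(Hw) peak was 10713 bp away. Among all genes without a mock Su(Hw) peak in the window, 2.33% had one after knockdown, and 1 of 7 did here. The 3 CP190 peaks of the window were kept, and the one at the upper end (22877631 to 22879771 in mock cells, 22877669 to 22879673 after knockdown) enclosed the place of the new Su(Hw) peak.

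Over the windows together, the kept shares of Isha and of CP190 were near those of the whole lists. Of the 20 mock Isha peaks, 4 were kept (20%, interval 8.07 to 41.6%), against 18.9% of all mock Isha peaks. Of the 15 mock CP190 peaks, 14 were kept (93.3%, interval 70.2 to 98.8%), against 93.8% of all. The single Su(Hw) peak was kept, against 89.9% of all. Peaks with no mock counterpart numbered 0 of 4 for Isha, 2 of 17 for CP190 and 1 of 2 for Su(Hw), against 4.40%, 10.9% and 4.71% of all knockdown peaks. By gene, 5 of 8 had no Isha peak left in the window, against 62.8% of the 8527 genes that had one in mock cells. No gene of the 8 was left without CP190, against 1.7% of the genes that had it, and BEAF-32 still had Su(Hw), against 8.45% of genes that had none left. None of the 8 gained Mod(mdg4), against 2.19% of genes without it in mock cells.

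**Figure D3:**
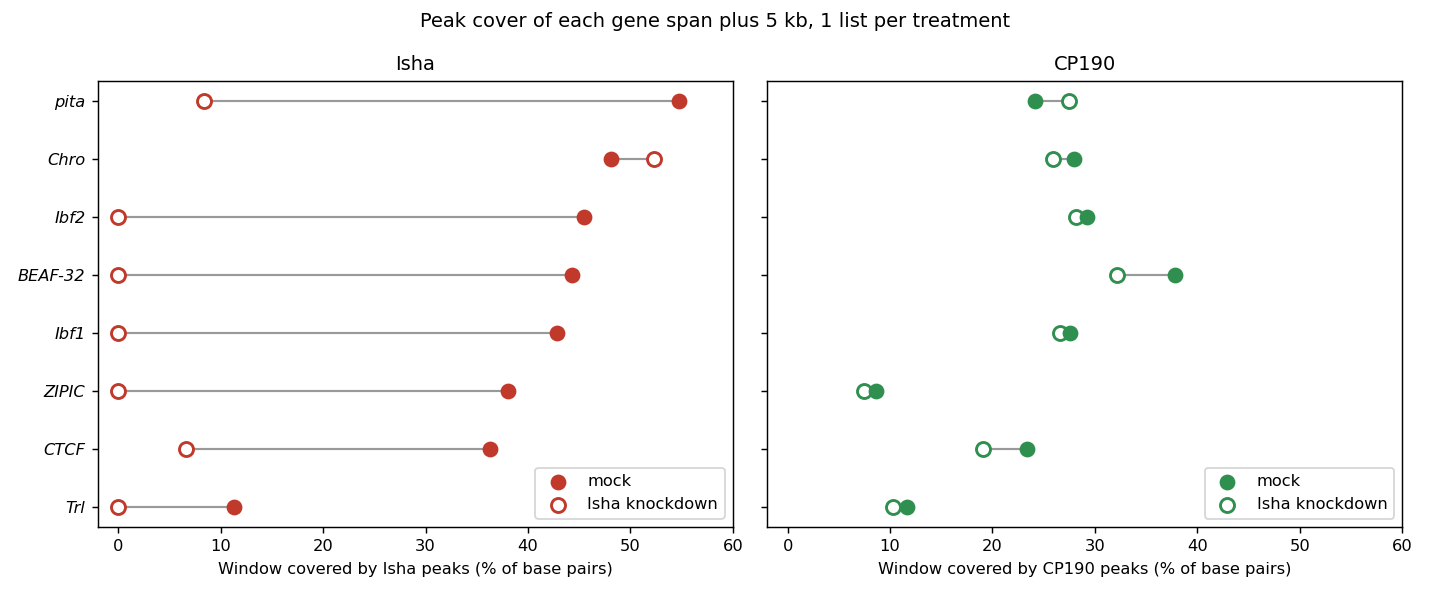
Share of the base pairs of each gene span plus 5 kb that lay under Isha peaks (left) and CP190 peaks (right), with filled points for mock and open points for Isha knockdown cells; genes are ordered by mock Isha cover. Isha goes to 0 at 5 genes and is higher after knockdown at Chro, while CP190 moves by less than 6 points at every gene.

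The cover of the windows by peaks ranked the genes. In mock cells Isha peaks covered 54.8% of the pita window, 48.1% at Chro, 45.4% at Ibf2, 44.3% at BEAF-32, 42.8% at Ibf1, 38.1% at ZIPIC, 36.3% at CTCF and 11.3% at Trl. The median over all genes with a mock Isha peak was 25.3%. With 1 list a treatment no spread can be set beside these shares, so neighbours in the order are not told apart. After knockdown the shares were 52.3% at Chro, 8.36% at pita, 6.55% at CTCF and 0 at the other genes. CP190 cover was highest at BEAF-32, with 37.9% in mock cells and 32.2% after knockdown, and lowest at ZIPIC, with 8.61% and 7.48%. It was lower after knockdown at all but pita, where it was 24.1% in mock cells and 27.5% after knockdown with its added peak. The ratio of knockdown to mock CP190 cover had a median of 0.906 over the 8 genes and of 0.878 over all genes with a mock CP190 peak.

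Isha and CP190 peaks often overlapped at these genes. Of the 20 mock Isha peaks, 15 overlapped a mock CP190 peak (75%, interval 53.1 to 88.8%), against 67.0% of all mock Isha peaks. Those at Ibf1 and Ibf2 overlapped the same CP190 peak, so the 15 are not independent cases. With 50% reciprocal overlap the share was 40%. Su(Hw) overlapped 1 of 20 (5%, interval 0.888 to 23.6%), against 7.18%, and Mod(mdg4) 0 of 20, against 1.71%. The Isha peak with Su(Hw) had the smallest width in the mock Isha list, 410 bp. Read from the side of CP190, 14 of 15 mock peaks overlapped Isha (interval 70.2 to 98.8%), against 39.0% of all CP190 peaks. CP190 peaks without Su(Hw) are the closer comparison: 13 of 14 overlapped Isha (interval 68.5 to 98.7%), against 66.2% of the 4337 such peaks. The share was 66.6% of all CP190 peaks in windows of genes with 2 or more mock Isha peaks. The exception among the 15 was the CP190 peak inside Trl.

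CP190 was still called at most sites where Isha was lost. Of the 16 lost Isha peaks, 11 had CP190 in mock cells, against 63.5% of all lost Isha peaks. All 11 still overlapped a CP190 peak after knockdown, against 95.1% of all lost Isha peaks with CP190. The lost peaks at Ibf1 and Ibf2 that had CP190 all met the same CP190 peak, so the 11 do not count separate CP190 peaks. With the site inside Trl, 12 of the 16 had a CP190 peak after knockdown, against 66.3% of all lost Isha peaks. All 4 kept Isha peaks had CP190 in both treatments, against 82.1% of all kept Isha peaks in mock cells and 87.3% after knockdown. All 4 knockdown Isha peaks overlapped CP190 after knockdown, against 85.2% of the knockdown Isha list. Of these 4, 1 overlapped Su(Hw), at Chro, against 6.87%, and 0 overlapped Mod(mdg4), against 3.54%. From the side of CP190, 5 of 17 knockdown peaks overlapped Isha, against 9.92% of all knockdown CP190 peaks. The 5 included all 3 CP190 peaks of the Chro window. No share among knockdown CP190 peaks without Su(Hw), the closer comparison, was computed. The 4 kept mock Isha peaks were 1065 to 3687 bp wide, with a median of 3248 bp, and the 16 lost ones 410 to 4976 bp, with a median of 1620.5 bp. Over the whole lists the medians were 2495 bp for kept and 1361.5 bp for lost peaks. Kept peaks were thus the wider by median in both, but width did not fully separate kept from lost. The widest of the 20, at BEAF-32, was lost.

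Peaks found in both treatments were mostly narrower after knockdown. All 13 CP190 peaks matched 1 to 1 were narrower, with ratios of knockdown to mock width from 0.601 to 0.982 and a median of 0.888. Over all 7361 such CP190 pairs the median was 0.856, and 87.7% were narrower. The lowest CP190 ratio belonged to the peak beside Su(Hw) inside Spred, and the next, 0.662, to the peak at Mgat4a near Trl. The Isha ratios were 0.465 at pita, 0.808 at CTCF, and 0.943 and 1.24 at Chro. The Su(Hw) peak near BEAF-32 had a ratio of 0.696, against a median of 0.887 over 4246 pairs, of which 78.1% were narrower.

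**Figure D4:**
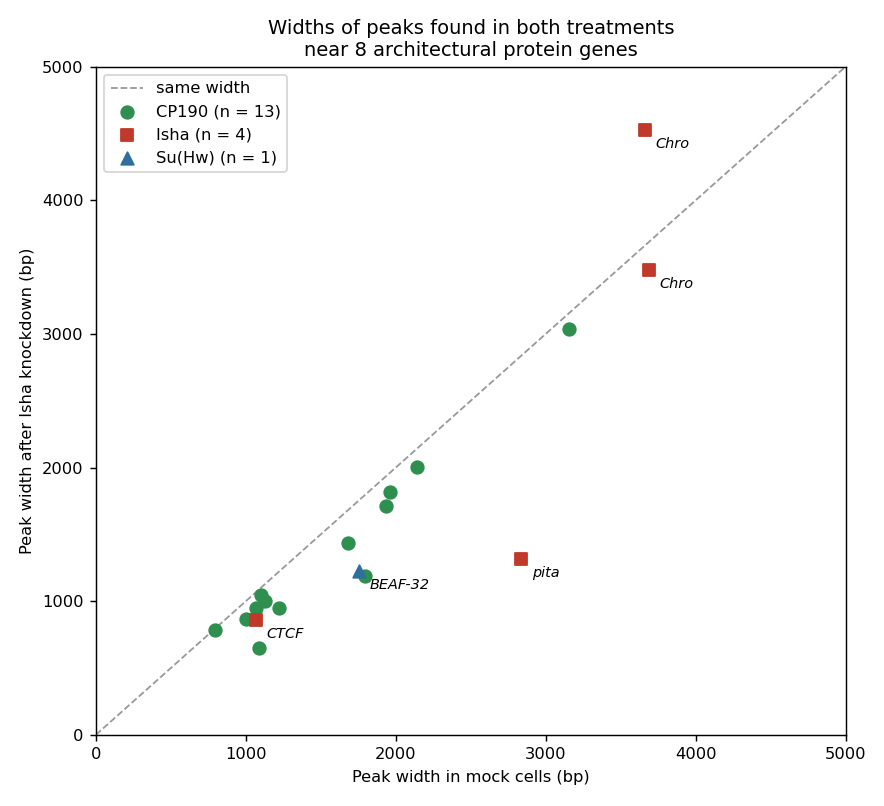
Width in bp after Isha knockdown against width in mock cells for the 18 peaks matched 1 to 1 near the 8 genes (13 CP190, 4 Isha, 1 Su(Hw)); the dashed line marks equal width. All points but the Isha peak at the upper end of Chro lie below the line, and the Isha peak at pita lies furthest below it.

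Other genes of architectural and chromosome-folding proteins were counted in the same way. Of a list of 24, which holds the genes of the Su(Hw) complex, ELBA, cohesin and condensin subunits and further insulator and chromosome factors, 22 had a mock Isha peak in the window, against 61.2% of all genes, and 13 a knockdown one, against 22.9%. CP190 was at 20 in mock cells and 21 after knockdown, against 79.1% and 80.7%. Su(Hw) was at 4 and 4, against 38.6% and 36.8%, and Mod(mdg4) at 4 and 2, against 15.1% and 14.0%. Of their 48 distinct mock Isha peaks 15 were kept, against 18.9% of all mock Isha peaks and 4 of 20 at the 8 genes. Of their 49 mock CP190 peaks 47 were kept, against 93.8% of all. The pattern of CTCF and pita, Isha and CP190 in both treatments with neither Su(Hw) nor Mod(mdg4), was found at 9 of the 24, namely Cp190, Isha, pzg, M1BP, Clamp, SMC1, SMC3, l(3)mbt and Map60, and at 15.4% of all genes. That of Trl, ZIPIC, Ibf1 and Ibf2, which had Isha in mock cells only and CP190 in both treatments, was found at 6, namely mod(mdg4), insv, Elba2, Dref, Nipped-B and fs(1)h, and at 21.3% of all genes. Of these, insv and Elba2 are neighbours that share their CP190 peaks and an Isha peak. They are therefore not independent cases, here or in the counts by gene over the 24. The pattern of BEAF-32 (6.28% of all genes) and that of Chro (69 genes, 0.496%) were found at none of the 24.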

How the data were processed

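Per the submitters' processing notes, the authors used Bowtie2 2.4.1, SAMtools 1.9 and Picard 2.22.2 with dm6. How peaks were called, at which threshold, and how replicates were combined is not given in the sources used here. In the deposited lists the authors give chromosome, start and end of each peak in base pairs and no other value. The list names were read as overlaps of both replicates ("SwHw" as Su(Hw)). Peaks on the arms 2L, 2R, 3L, 3R, 4 and X were used, which left out 1 to 5 per list. Coordinates are counted from 1. Genes came from a RefSeq table of Release 6 plus ISO1 MT, where all 8 symbols and all 24 of the wider list matched. All 8 genes are named with their peaks. Of the wider list, genes are named whose pattern over the lists equals that of 1 of the 8. The genes, lists and comparisons were chosen with earlier results of these data known. No gene list was tested. Percentages over all genes or peaks serve as background. Values were computed in Python 3.11.15 (NumPy 2.4.6, pandas 2.3.3, statsmodels 0.14.6, matplotlib 3.10.9), and overlap steps were tested on simulated data. The labels do not state that replicates were separate cultures. Alternatives were other windows, overlaps, gene-end distances, a minimum width and merging of peaks.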

Additional observations from a re-analysis of the deposited data

How the results depend on the processing

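Mock Isha was at 8 genes under every window and width tried, and CP190 at 7 or 8 in each treatment. Knockdown Isha ranged from 2 to 5 genes, and Su(Hw), Mod(mdg4) and the counts at gene ends also depended on the window. Of 87 values recomputed under alternatives, 63 stayed within 1.5 times the reported count or within the interval of the reported share. The 63 include counts of 0 that stayed at 0. They also include shares of the 1 Su(Hw) peak, whose interval of 20.7 to 100% admits most values, so the tally does not measure stability. With 10 kb flanks, knockdown Isha was at 5 genes, mock Su(Hw) at 3 and Mod(mdg4) at 1 in each treatment, with no share over all genes computed. With no flank or 1 kb, mock Su(Hw) was at 0 and knockdown Su(Hw) at 1. Among peaks at least 1000 bp wide, knockdown Su(Hw) was at 1 gene, and 69.2% of 13 CP190 peaks were kept, where narrower knockdown peaks fall under the minimum by construction. With midpoints within 250 bp, 0 of the 1 Su(Hw) peak counted as kept. The kept share of Isha ran from 10% (midpoints within 250 bp) to 27.3% (no flank). Mock Isha peaks at a gene end numbered 2 within 250 bp and 10 within 1000 bp, and knockdown ones 0 and 2, or 3 when the peak had to cover the end. For CP190 the numbers were 2 and 7 in mock cells and 1 and 7 after knockdown, or 6 by cover. No share over all genes was computed for the counts at 250 and 1000 bp. CP190 overlapped 40% of the mock Isha peaks at 50% reciprocal overlap and 30% by midpoints within 250 bp, and Su(Hw) 0% at reciprocal overlap.

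No paired analysis was possible because there is 1 list per antibody and treatment with no replicate column, and for the same reason leaving out a replicate was not run. A stricter peak threshold was not run, since the lists hold no score. No alternative was planned for the width ratios. Depth is unknown, so an absent peak is one not called.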

Other observations

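In the wider list of 24 genes, vtd, Topors and dwg each had a CP190 peak in 1 treatment only, which none of the 8 genes had in its window as a whole. They were chosen after their values were seen. At vtd, the cohesin subunit gene on 3L, a mock Isha peak at 27133843 to 27137899 met 3 knockdown Isha peaks, and the mock CP190 peak there, 27135686 to 27137597, had no knockdown counterpart. At Topors, a ubiquitin ligase gene linked to the gypsy insulator, the Isha peak was kept (2R, 18970276 to 18974106 in mock cells, 18971534 to 18974249 after knockdown), no CP190 peak was called in mock cells, and 2 were called after knockdown, 18970769 to 18971674 and 18972223 to 18973457. At dwg, which encodes the scs-binding protein Zw5, 3 mock Isha peaks were lost and a CP190 peak on X, 2727196 to 2728144, was called only after knockdown. Over all genes without a mock CP190 peak in the window, 14.3% had one after knockdown, against 2 of 4 in the wider list. Of all genes with a mock CP190 peak, 1.7% had none left after knockdown, against 1 of 20 in the wider list. These differences rest on 1 list a treatment and were not tested.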
